A study of Mus musculus with 13 samples.

Results

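The transcripts described here are those of 10 apolipoprotein genes, Apoa1, Apoa2, Apoa4, Apoa5, Apob, Apoc1, Apoc3, Apoe, Apoh and Apom, measured in endothelial cells of mouse liver. They were found by gene symbol among the 24421 symbols of the deposited count table, and all 10 were present and abundant enough to be tested. The RNA-seq libraries came from wild-type mice that were conventionally raised, with a normal microbiota (CONV-R, n = 7), or germ-free, without live microbes (GF, n = 6). The labels name no sex, age, strain background or method of isolating the cells. They also do not say whether each library is a separate animal, and the p-values therefore rest on a spread between libraries that may be technical.

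Apolipoproteins are the protein components of lipoproteins, the particles that carry cholesterol and triglyceride in blood. Apob forms the scaffold of very low density and low density lipoproteins, Apoa1 and Apoa2 that of high density lipoproteins, and the smaller exchangeable apolipoproteins steer lipases and receptors on these particles. In the liver most of these genes are transcribed mainly by hepatocytes, whereas Apoe is also strongly transcribed by macrophages, including Kupffer cells. A library of liver endothelial cells can therefore hold apolipoprotein RNA that comes from other cells.

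The smallest CONV-R library held 7590320 counts and the largest 32869515, and the GF libraries held 23407168 to 35478115. Sinusoidal endothelial markers were abundant in every library: the 10 listed genes, among them Stab1, Stab2, Kdr and Clec4g, summed to 17571 to 30312 in the CONV-R libraries and 29771 to 31805 in the GF libraries, in CPM (counts scaled to a common library size, here the library total). Of the 20 hepatocyte markers listed, 19 were tested and Ass1 had 3 counts in all. Their summed level was 1637 to 10903 CPM across CONV-R libraries and 1032 to 1583 CPM across GF libraries, so that the groups did not overlap. Kupffer cell markers summed to 2607 to 8182 CPM across CONV-R libraries and 2445 to 4063 CPM across GF libraries, and none of the 12 was at 0 in any library. The library names carry a code number, which is 10 in CONV-R 1, 2, 3 and 4, 9 in CONV-R 5, 6 and 7 and 6 in every GF library. Its meaning is not stated, and this code and the group cannot be told apart.

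By position, 4 of the genes form a cluster of 43.3 kb on chromosome 9 of the mouse build GRCm38, from 46228630 to 46271921, in the order Apoa1, Apoc3, Apoa4 and Apoa5. Apoc1 (19689480 to 19692659) and Apoe (19696244 to 19701310) lie next to each other on chromosome 7. Apoa2 lies on chromosome 1 (171221564 to 171226379), where its gene model overlaps that of Tomm40l, Apob on chromosome 12 (7977629 to 8016839), Apoh on chromosome 11 (108395297 to 108414396) and Apom on chromosome 17 (35128997 to 35131801). All are protein-coding genes and the counts are sums over each gene. The 250 bases before the RefSeq start site (GRCm38.p6) are shown for 6 genes, chosen because they include Apoa4 and Apoe, whose levels did not pass the test between groups, and the members with a match among 6 motifs searched on both strands. Capitals mark a match. Apoa2 and Apoh hold the nuclear receptor element AGGTCA, read here on the opposite strand, and Apoa5 and Apob the TATA box TATAAA. The windows are chr1:171221314-171221563 (+ strand) for Apoa2, chr11:108395047-108395296 (+ strand) for Apoh, chr9:46268358-46268607 (+ strand) for Apoa5, chr12:7977427-7977676 (+ strand) for Apob, chr9:46240594-46240843 (+ strand) for Apoa4 and chr7:19699189-19699438 (- strand) for Apoe. Where the table holds several start sites the most upstream was taken, and for Apob and Apoe it lies inside the gene span given above.
Apoa2: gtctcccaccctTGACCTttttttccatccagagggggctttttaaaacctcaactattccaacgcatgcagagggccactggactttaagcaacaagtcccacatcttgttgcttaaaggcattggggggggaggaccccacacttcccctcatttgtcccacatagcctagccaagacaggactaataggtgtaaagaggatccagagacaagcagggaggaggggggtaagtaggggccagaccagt
Apoh: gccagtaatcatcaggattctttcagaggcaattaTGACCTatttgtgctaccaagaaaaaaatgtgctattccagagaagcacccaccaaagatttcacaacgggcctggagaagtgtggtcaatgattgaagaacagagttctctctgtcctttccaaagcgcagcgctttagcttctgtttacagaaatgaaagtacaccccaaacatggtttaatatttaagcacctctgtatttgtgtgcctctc
Apoa5: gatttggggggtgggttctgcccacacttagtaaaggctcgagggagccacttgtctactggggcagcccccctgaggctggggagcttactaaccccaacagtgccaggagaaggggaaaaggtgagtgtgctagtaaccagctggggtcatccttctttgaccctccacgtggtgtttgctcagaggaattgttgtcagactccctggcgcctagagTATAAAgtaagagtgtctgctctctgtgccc
Apob: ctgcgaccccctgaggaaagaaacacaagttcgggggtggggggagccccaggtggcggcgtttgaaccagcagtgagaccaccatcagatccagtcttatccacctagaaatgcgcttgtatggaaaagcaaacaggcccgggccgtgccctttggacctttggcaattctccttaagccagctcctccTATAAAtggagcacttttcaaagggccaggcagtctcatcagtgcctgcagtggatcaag
Apoa4: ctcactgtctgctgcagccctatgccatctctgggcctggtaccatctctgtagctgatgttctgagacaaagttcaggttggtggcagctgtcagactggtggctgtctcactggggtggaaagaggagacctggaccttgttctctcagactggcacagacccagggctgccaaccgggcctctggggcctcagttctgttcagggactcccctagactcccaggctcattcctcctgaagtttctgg
Apoe: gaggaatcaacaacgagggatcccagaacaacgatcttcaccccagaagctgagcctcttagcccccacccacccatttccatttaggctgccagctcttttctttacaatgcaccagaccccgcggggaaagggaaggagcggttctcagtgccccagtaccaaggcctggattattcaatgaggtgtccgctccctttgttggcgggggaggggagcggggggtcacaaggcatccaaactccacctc

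Among the 8 members with a promoter window in the RefSeq table, 2 held AGGTCA and 2 held TATAAA, against 14% and 12.4% of 32851 windows of the same length. None of the 8 held the HNF4 site CAAAGTCCA (0.384% of windows), the palindromic HNF1 site (0.00913%), the C/EBP site TTGCGCAA (0.164%) or the GC box GGGCGG (32.7%). A match is a description of the letters in these windows.

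Apolipoprotein transcripts were lower in GF for 8 of the 10 genes, by 2.44-fold for Apoc1 to 7.34-fold for Apob, and none was higher. Apoa4 and Apoe did not pass the test. Over all 13915 tested genes 12.7% were lower and 11.4% higher at the same threshold (quasi-likelihood test of edgeR with Benjamini-Hochberg adjustment, threshold 0.05), which is 1764 lower and 1593 higher. Scaling by the total of each library instead of TMM gave 2773 lower and 971 higher, and the same 8 members were lower. The median log2 fold change of the 10 genes was -2.19, against -0.01 over all tested genes. For 5 of the 10, Apoa1, Apoa2, Apob, Apoh and Apom, all 6 GF libraries lay below every CONV-R library, a separation that 4.32% of all tested genes showed.

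**Figure D1:**
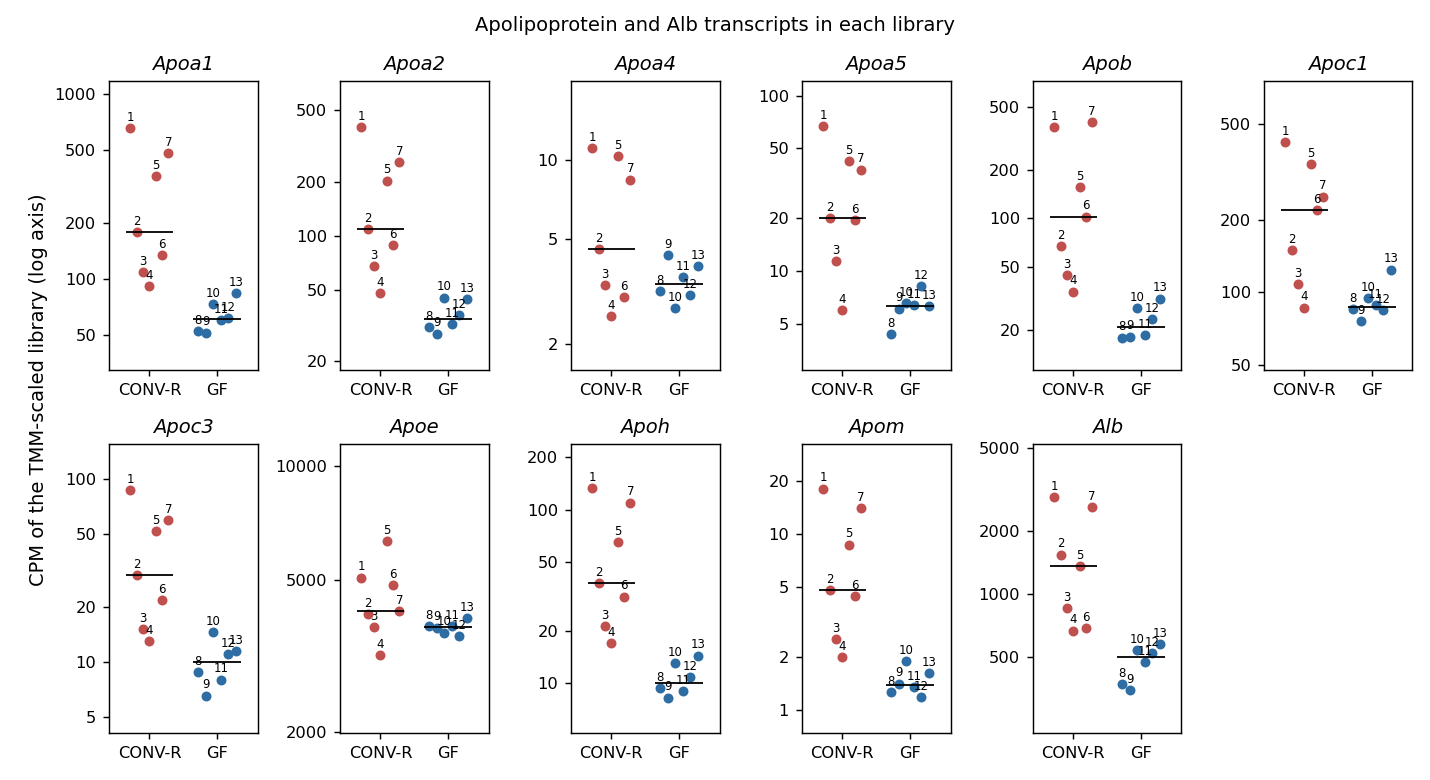
Level of each apolipoprotein gene and of Alb in each library, as CPM of the TMM-scaled library on log axes that differ between panels. Points are libraries, the numbers beside them are library numbers from the labels and lines are group medians. The GF libraries of Apoe all lie between 3577 and 3979 CPM, inside the CONV-R range of 3176 to 6359, whereas those of Apob all lie below every CONV-R library.

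Apoa1, the main protein of high density lipoprotein and activator of the cholesterol-esterifying enzyme Lcat, stood at 91.3 to 656 CPM in CONV-R (median 179) and 51.3 to 83.9 CPM in GF (median 60.6). These CPM refer to the library total after TMM scaling, which is the scale of all gene levels below. CONV-R libraries 1, 7 and 5 were highest, and CONV-R 4, the lowest, lay just above the highest GF library, GF 13. The log2 fold change was -2.18 ± 0.45 SE (adjusted p = 0.00484). Apoa2, the second protein of these particles, ran from 47.8 to 404 CPM in CONV-R (median 109) and from 28.5 to 45.2 CPM in GF (median 34.2), with a log2 fold change of -2.21 ± 0.44. Apom, a lipocalin on high density lipoprotein that carries sphingosine 1-phosphate, was much scarcer, at 2.0 to 18.2 CPM in CONV-R (median 4.82) and 1.18 to 1.90 CPM in GF (median 1.38). It had 34 to 359 counts in a CONV-R library and 30 to 64 in a GF library, and its log2 fold change was -2.42 ± 0.49 (adjusted p = 0.00439). All 3 genes had the same order at the top, CONV-R 1 above 7 above 5.

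Apob had the largest difference of the 10. It stood at 35 to 401 CPM in CONV-R (median 103) and 18.0 to 31.6 CPM in GF (median 21.1), with CONV-R 7 and 1 highest and CONV-R 4 lowest. Its log2 fold change was -2.87 ± 0.57 (adjusted p = 0.00412). Apoh, also called beta-2-glycoprotein I, a plasma protein that binds anionic phospholipid, ran from 17.1 to 133 CPM in CONV-R (median 37.8) and from 8.26 to 14.4 CPM in GF (median 10.1). The log2 fold change of Apoh was -2.46 ± 0.47 with the smallest p of the 10 genes (adjusted p = 0.00313). In both genes the groups did not overlap.

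Of the chromosome 9 genes, Apoc3 and Apoa5 were lower and Apoa4 did not pass, a difference between genes that was not tested. Apoc3, which inhibits lipoprotein lipase and particle uptake, stood at 12.9 to 86.1 CPM in CONV-R (median 29.8) and 6.54 to 14.4 CPM in GF (median 9.91). Only GF 10, at 14.4 CPM, reached into the CONV-R range, and the log2 fold change was -1.97 ± 0.42 (adjusted p = 0.00605). Apoa5, which promotes triglyceride hydrolysis, ran from 6.0 to 67.3 CPM in CONV-R (median 19.9) and from 4.34 to 8.20 CPM in GF (median 6.33). Here CONV-R 4 lay among the GF libraries, so that only GF 8 was below every CONV-R library, and the log2 fold change was -2.21 ± 0.46 (adjusted p = 0.00519). Apoa4, an apolipoprotein best known from intestinal lipoproteins, stood at 2.54 to 11.1 CPM in CONV-R (median 4.59) and 2.73 to 4.33 CPM in GF (median 3.38). CONV-R 1, 2, 5 and 7 were above every GF library, CONV-R 3 and 6 lay within the GF range and CONV-R 4 lay below it. The log2 fold change of Apoa4 was -0.83 ± 0.35 (adjusted p = 0.0935), and -0.97 (adjusted p = 0.0394) without CONV-R library 4. Its counts were low, 23 to 218 in a CONV-R library and 80 to 106 in a GF library.

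Of the neighbours on chromosome 7, Apoc1 was lower and Apoe did not pass, and the difference between them was not tested. Apoe, the ligand by which remnant particles bind lipoprotein receptors, had the most counts per length of the 10 genes in every library and stood at 3176 to 6359 CPM in CONV-R (median 4144) and 3577 to 3979 CPM in GF (median 3769). The GF libraries lay inside the CONV-R range, CONV-R 5 was highest and CONV-R 4 lowest. The log2 fold change was -0.26 ± 0.14 (adjusted p = 0.178). A p that misses the threshold does not show that the groups were alike. Apoc1, a small apolipoprotein that modulates particle uptake and remodelling, stood at 86.3 to 420 CPM in CONV-R (median 220) and 75.8 to 124 CPM in GF (median 86.5). Its log2 fold change was -1.29 ± 0.32 (adjusted p = 0.0132), with 3 of 6 GF libraries below every CONV-R library. CONV-R 3 and 4, at 108 and 86.3 CPM, lay within the GF range. Apoc4, the next gene of this chromosome 7 group and not among the 10, had a log2 fold change of -2.34 ± 0.49.

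**Figure D2:**
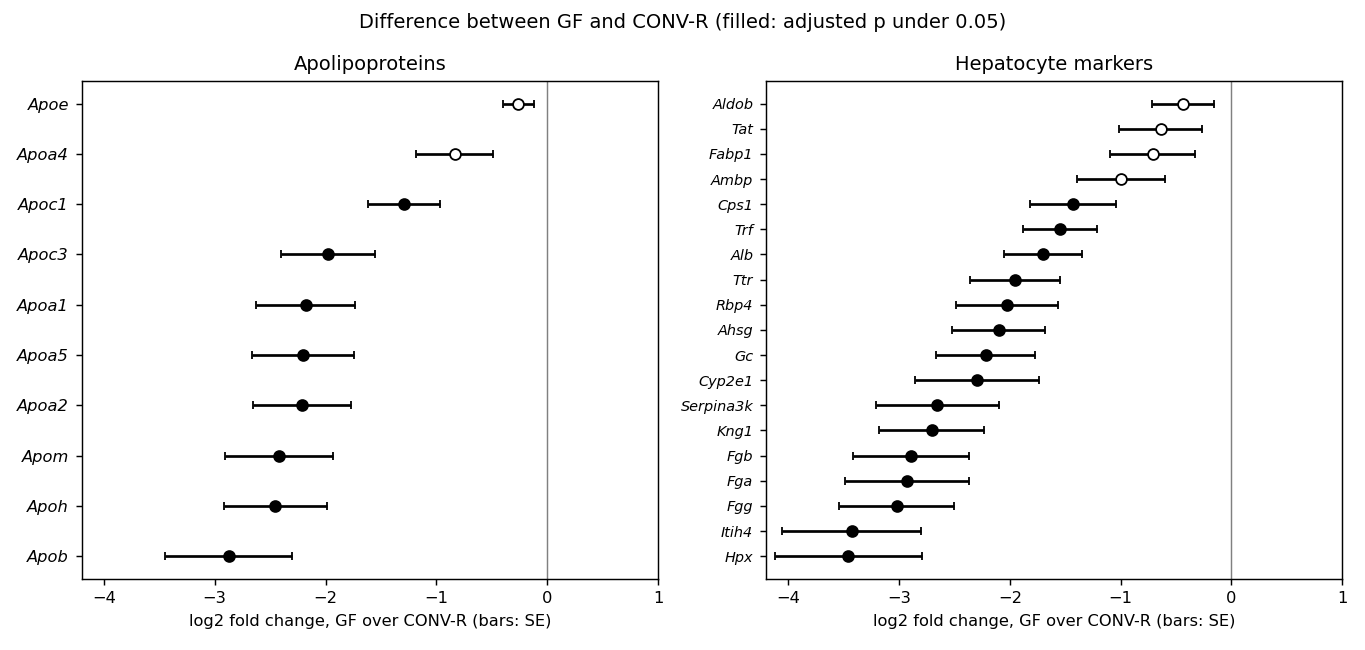
Log2 fold change of GF over CONV-R with its standard error for the 10 apolipoprotein genes (left) and the 19 tested hepatocyte markers (right). Filled points passed the adjusted threshold of 0.05. Apoe at -0.26 and Apoa4 at -0.83 are open, and the other 8 apolipoprotein genes lie between -1.29 and -2.87, within the span of the hepatocyte markers.

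Per kilobase of exon, the order of the levels was nearly the same in both groups. Apoe led with a median of 1938 CPM per kb in CONV-R and 1763 in GF, followed by Apoc1 (295 and 116.2), Apoa2 (203 and 63.7) and Apoa1 (145 and 49.0). Apoc3 (29.4 and 9.77) and Apoh (23.7 and 6.31) came next. Apoa5 (7.90 and 2.51), Apob (7.38 and 1.51), Apom (4.76 and 1.36) and Apoa4 (2.53 and 1.86) were lowest, so that Apoa4 was the last of the 10 in CONV-R and above Apob and Apom in GF. Over the CONV-R libraries Apoe, at 1486 to 2974 CPM per kb, lay above Apoc1, which reached 565 at most, and each gene below Apoe overlapped the next in the order. Without Apoe, the other 9 genes summed to 301 to 2167 CPM in CONV-R and 201 to 322 CPM in GF.

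The levels of the 8 lower genes moved with those of the hepatocyte markers. Of the 19 hepatocyte markers tested 15 were lower and 0 higher in GF, with a median log2 fold change of -2.10, close to the -2.19 of the apolipoprotein genes. Alb, the albumin gene, ranged over 667 to 2922 CPM among CONV-R libraries and 344 to 572 CPM among GF libraries (log2 fold change -1.70 ± 0.35), Ttr, encoding transthyretin, had a log2 fold change of -1.95 ± 0.41, and Fgb, a fibrinogen chain gene, of -2.89 ± 0.52. In bulk RNA, fewer hepatocytes or hepatocyte RNA in a library and less RNA of these genes per cell cannot be told apart. With each library's summed hepatocyte markers as a covariate, 0 of the 10 apolipoprotein genes passed in edgeR (1.83% of all tested genes were lower), and 1, Apoh, had an unadjusted p under 0.05. Their log2 fold changes then ran from -0.22 for Apoh to 0.62 for Apoa4, with adjusted p from 0.229 to 0.996. The hepatocyte sums did not overlap between the groups (1637 to 10903 CPM in CONV-R, 1032 to 1583 CPM in GF). This fit therefore cannot clearly separate group from hepatocyte level, and no conclusion is drawn from the loss of calls. CONV-R 2, 3 and 4 had the most counts of the CONV-R libraries and the lowest Apob, Apoh and Apom counts relative to Alb. A fit with them alone is therefore not independent of the member values. Against CONV-R 2, 3 and 4 alone the log2 fold changes of the 8 genes were smaller, from -1.23 for Apoh to -0.32 for Apoc1, and Apoc1 (adjusted p = 0.253) and Apoc3 (-0.93, adjusted p = 0.0538) no longer passed in edgeR. With limma-voom and library quality weights and all CONV-R libraries they ran from -1.69 for Apob to -0.80 for Apoc1, and the 8 passed.

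**Figure D3:**
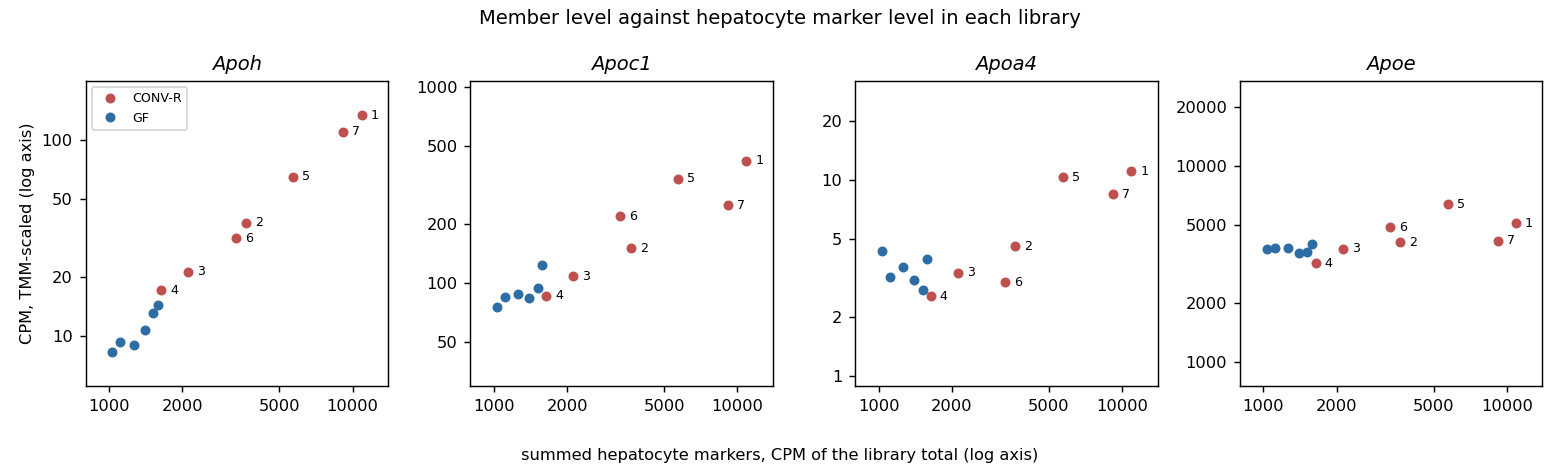
Level of Apoh, Apoc1, Apoa4 and Apoe (CPM, TMM-scaled, log axis) against the summed hepatocyte markers of the same library (CPM of the library total, log axis), 1 point per library, with CONV-R libraries numbered. All vertical axes span the same fold range. Apoh runs from 8.26 CPM in the library with the lowest hepatocyte level to 133 CPM in that with the highest, while Apoe stays between 3176 and 6359 CPM.

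Kupffer cell markers are the other list to set beside Apoe and Apoc1, since macrophages transcribe both. None of the 12 passed in edgeR, 7 had an unadjusted p under 0.05, and the list had a median log2 fold change of -0.62. Clec4f, Vsig4, Cd5l and Marco stood at -0.66 ± 0.27, -0.68 ± 0.26, -0.60 ± 0.27 and -0.88 ± 0.44. CONV-R 6, 5 and 1 had the highest Kupffer cell sums, 8182, 7981 and 7148 CPM, and were also the 3 libraries highest in Apoe, at 4850, 6359 and 5083 CPM. With the Kupffer cell sum as a covariate the log2 fold change of Apoe was -0.01 ± 0.10 and that of Apoc1 -0.54 (edgeR, adjusted p = 0.0877). This covariate was added after seeing the data, and the part of Kupffer cells in the Apoe and Apoc1 levels was not tested. In the fit with the Kupffer cell sum 4 of the 10 genes were still lower, beside 4.8% of all tested genes. These were Apoa1, Apoa2, Apoh and Apom, which passed narrowly in edgeR (adjusted p = 0.0498, 0.0452, 0.0304 and 0.0452). Apob (-1.87, adjusted p = 0.0505), Apoa5 (-1.28, adjusted p = 0.0640) and Apoc3 (-1.25, adjusted p = 0.0645) missed the threshold in edgeR by little. Neutrophil and monocyte markers fell for 5 of 6 genes as well, with sums of 603 to 2681 CPM across CONV-R libraries and 430 to 645 CPM across GF libraries, and their part in the apolipoprotein levels was not tested.

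Since the code numbers of the 2 groups do not overlap, GF was compared with each CONV-R number separately. Against the 4 CONV-R libraries with number 10 alone, 7 of the 10 genes were lower (7.05% of all tested genes), and Apoc1 no longer passed (log2 fold change -1.05, adjusted p = 0.0930). Against the 3 with number 9 alone, all 10 were lower (17.9% of all tested genes), among them Apoa4 (-1.11, adjusted p = 0.0144) and Apoe (-0.46, adjusted p = 0.0101). Apart from Apoa4 and Apoe, each gene was lower at every omission of 1 library.

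To describe the members on a scale within each library, their counts were divided by the Alb counts of the same library. Alb had 5235 to 57641 counts per library. On this scale 7 of the 10 differences were still negative, but smaller than those of the levels. By the exact two-sided permutation test (1716 arrangements), adjusted over 13914 genes, 2 genes were lower in GF, Apob and Apoh. Past the same threshold 2 were higher, Apoa4 and Apoe. The other 6 did not pass, which does not show that they were unchanged. Alb itself fell, and 88.6% of all genes were higher and only 0.525% lower relative to Alb, with a median difference of 1.5 on the log2 scale. Against that background the 2 higher genes are no result about these members. The median of the 10 genes was -0.35, and that of 18 hepatocyte markers was -0.27, of which 5 were higher and 3 lower relative to Alb.

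**Figure D4:**
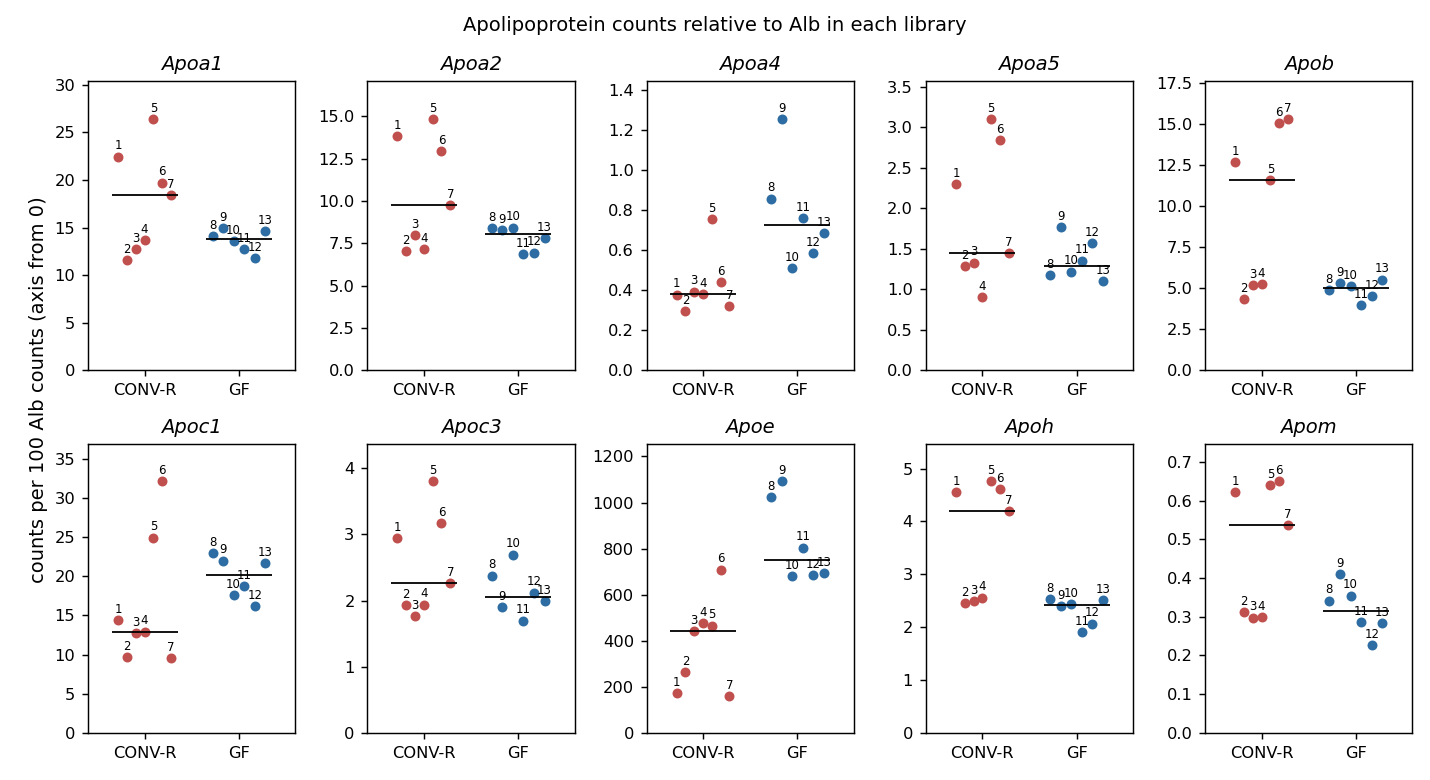
Counts of each apolipoprotein gene per 100 Alb counts in each library, with axes from 0 that differ between panels. Points are libraries numbered as in the labels and lines are group medians. For Apoh, Apob and Apom, CONV-R libraries 2, 3 and 4 sit within or next to the GF range and CONV-R 1, 5, 6 and 7 stand above them.

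Apoh stood at 2.45 to 4.76 counts per 100 Alb counts in CONV-R (median 4.19) and 1.91 to 2.53 in GF (median 2.42). The mean log2 ratio was -4.83 ± 0.46 (SD, n = 7) in CONV-R and -5.44 ± 0.17 (SD, n = 6) in GF, a difference of -0.61 (exact permutation test, p = 0.0181, adjusted p = 0.0217). CONV-R 1, 5, 6 and 7 stood between 4.19 and 4.76, and CONV-R 2, 3 and 4 between 2.45 and 2.56, next to the GF values. Apob showed the same arrangement, at 11.6 to 15.3 in CONV-R 1, 5, 6 and 7, 4.34 to 5.24 in CONV-R 2, 3 and 4, and 3.96 to 5.52 in GF. CONV-R 2, 3 and 4 had 29293248 to 32869515 counts, and CONV-R 1, 5, 6 and 7 had 7590320 to 18276439. Kupffer cell sums were 2607 to 3276 CPM in the first set and 4766 to 8182 CPM in the second. Neutrophil and monocyte sums were 603 to 825 and 1172 to 2681 CPM. The part of depth and of these cells in the split was not tested. The log2 difference for Apob was -0.85 (exact permutation test, p = 0.0431, adjusted p = 0.0485). Without CONV-R 1, 5, 6 or 7, or without GF 8, 11 or 12, Apob was no longer called, with adjusted p from 0.0546 to 0.0940 in the exact permutation test. Nor was it called when every gene with a count was tested (adjusted p = 0.0590, exact permutation test), and with edgeR on Alb-scaled counts Apoh was not called (adjusted p = 0.102).

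Of the 6 genes that did not pass, 5 had CONV-R 2, 3 and 4 below CONV-R 1, 5, 6 and 7, and Apoc1 did not. Apoa1 (11.6 to 26.4 counts per 100 Alb counts in CONV-R, 11.8 to 14.9 in GF), Apoa2 (7.05 to 14.9 and 6.84 to 8.43) and Apom (0.298 to 0.649 and 0.227 to 0.411) had log2 differences of -0.34, -0.38 and -0.53. Apom was called (adjusted p = 0.0434 to 0.0454, exact permutation test) without CONV-R 2, 3 or 4, and Apoa1 (adjusted p = 0.0454, exact permutation test) without CONV-R 2. Apoa5 stood at 0.900 to 3.11 in CONV-R and 1.10 to 1.77 in GF, and Apoc3 at 1.76 to 3.80 and 1.70 to 2.69, with log2 differences of -0.36 and -0.22. Apoc1 went the other way in its medians, 12.9 in CONV-R and 20.2 in GF. CONV-R 5 and 6, at 24.9 and 32.1, nevertheless lay above every GF library. The Apoc1 difference of 0.39 did not pass (exact permutation test, adjusted p = 0.207), but was 0.57 and past the threshold without CONV-R 6 (adjusted p = 0.0377, exact permutation test).

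Apoa4 and Apoe were higher relative to Alb. Apoa4 stood at 0.297 to 0.755 counts per 100 Alb counts in CONV-R (median 0.381) and 0.510 to 1.26 in GF (median 0.725), a log2 difference of 0.88 (exact permutation test, p = 0.00641, adjusted p = 0.00903). CONV-R 5 alone reached into the GF range. Apoe stood at 158 to 709 in CONV-R (median 442) and 680 to 1091 in GF (median 750), a log2 difference of 1.27 (exact permutation test, p = 0.00291, adjusted p = 0.00572), with 3 of 6 GF libraries above every CONV-R library. Both differences stayed past the threshold without any single library. They lay below the median difference of 1.5 over all genes, of which 88.6% were higher relative to Alb. Against CONV-R number 10 alone 3 genes, Apoa4, Apoc1 and Apoe, were higher relative to Alb, beside 89% of all genes, and 0 were lower by exact permutation, Apoh alone having an unadjusted p under 0.05 in that direction. Against number 9 alone 6 genes were lower, Apoa1, Apoa2, Apoa5, Apob, Apoh and Apom, beside 1.48% of all genes, and by exact permutation Apoa4 (0.64, adjusted p = 0.144) and Apoe (1.12, adjusted p = 0.0565) missed the threshold.

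Dividing by Alb narrowed the spread among CONV-R libraries for 9 of the 10 genes and widened it for Apoe. The SD of the log2 level in CONV-R was 1.12 for Apoa1 and the SD of its log2 ratio 0.45. For Apoh the SDs were 1.14 and 0.46, for Apob 1.40 and 0.80, for Apoc1 0.84 and 0.67, and for Apoe 0.33 and 0.82. In GF the SD of the log2 level was 0.05 for Apoe and 0.24 to 0.41 for the other 9 genes. Dividing by Alb widened the GF spread for Apoa4 (0.25 to 0.46), Apom (0.25 to 0.30) and Apoe (0.05 to 0.31), and narrowed it for the rest.

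Members aside, the genes whose pattern over the 13 libraries lay nearest to each member were ranked by the mean absolute difference of log2 CPM after centring each gene. Apoh was nearest to Serpinc1, the antithrombin gene (0.06), Apoa2 to Ahsg, the fetuin-A gene (0.08), and Apoa1 also to Ahsg (0.11), followed by F2, the prothrombin gene (0.11). Apom was nearest to Gc, the vitamin D binding protein gene (0.11), Apob to Ugt2b5 (0.12) and Pzp (0.12), Apoc3 to Cyp2a12 (0.16) and Apoa5 to Fetub (0.18). Alb was farther from each of these, at 0.29 to 0.63. Apoc1 was nearest to Anpep (0.17), then Trf and Slfn2 (both 0.19), and Apoa4 to Rtn1, Slc22a18 and Ahcy (all 0.22). The nearest genes of Apoe were Ssr4 (0.07), Gtf3a (0.07) and Mrpl42 (0.08), none of which passed the test between groups.

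Of 67 tested genes of lipoprotein metabolism, in 5 lists, 24 were lower and 8 higher, beside 12.7% lower and 11.4% higher over all tested genes, so that the higher count is near the background. The counts were 26 lower and 4 higher when scaled by the total of each library. In the list of other apolipoproteins 7 of 11 tested genes were lower and 2 higher (median log2 fold change -1.48). Apon (-2.78 ± 0.49), Apof (-2.49 ± 0.49) and Apoc4 fell about as much as the members, and Apol7a, of a family with near-identical copies whose counts are uncertain, by 2.15 on the log2 scale. Clu, the clusterin gene, named here after its value was seen, rose from a mean of 219 ± 94.2 CPM (SD) to 378 ± 100.8 CPM, by 0.78 ± 0.25 on the log2 scale, but did not pass when scaled by library totals (adjusted p = 0.0581). Apoc2, Apod, Saa1, Saa2 and Saa3 were too low to be tested.

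Among receptors and uptake genes 4 of 13 were lower and 2 higher (median -0.02), the higher count again near the 11.4% of all genes. Stab1 and Stab2 stand both in this list and among the sinusoidal endothelial markers. Sorl1, a sorting receptor, was lower (-1.65 ± 0.35). Cd36, a fatty acid and lipoprotein scavenger receptor, rose by 0.90 ± 0.14 on the log2 scale.

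In the list of lipases and their regulators 5 of 8 genes were lower and 2 higher (median -0.83), beside 12.7% lower and 11.4% higher over all tested genes. Lipc, hepatic lipase (-1.96 ± 0.40), and Lpl, lipoprotein lipase (-0.84 ± 0.21), were lower, whereas Gpihbp1, which holds lipoprotein lipase on capillary endothelium, was higher (0.59 ± 0.13). Assembly, remodelling and export genes were lower for 6 of 15 and higher for 2 (median -0.57), the higher count being near the 11.4% of all genes. Pon1, an esterase of high density lipoprotein (-2.60 ± 0.51), Mttp, which loads lipid onto Apob (-2.19 ± 0.48), and Lcat (-1.67 ± 0.40) were lower, and Sort1, a sorting receptor of the Golgi, was higher (0.58 ± 0.13). The summed hepatocyte markers moved with the lower genes of these lists, as with the members. Beside the higher genes, among them Cd36 and Gpihbp1, 5 of 10 sinusoidal endothelial markers were higher and 0 lower (median 0.36), as were 3 of 5 cholangiocyte markers (median 1.22), and their part in these lists was not tested. With the hepatocyte sum as a covariate 1 pathway gene was lower and 3 were higher, beside 255 lower and 282 higher of all 13915 tested genes. Counts this small are no result about these lists.

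Of 20 transcription factor genes known to act on apolipoprotein promoters, 2 were lower and 18 did not pass (median -0.09), which is near the 12.7% of all genes that were lower and is no result about this list. The 2 were Mlxipl (-2.52 ± 0.54), encoding the carbohydrate-responsive factor ChREBP, and Creb3l3 (-1.98 ± 0.54), a membrane-bound factor of hepatocytes. Hnf4a, named after its value was seen, stood at 17.6 ± 10.8 CPM in CONV-R and 17.2 ± 4.03 CPM in GF (mean ± SD, log2 fold change -0.03 ± 0.34).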

How the data were processed

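The values are unnormalized counts that the authors deposited, with a column for each of the 13 libraries. The submitters' processing notes name the build mm10 and the tools DESeq2 1.42.1, featureCounts 2.0.1, Subread, STAR 2.7.5a and FastQC 0.11.9. They give no roles, annotation, strand setting or treatment of multi-mapping reads. Per the labels' protocols a stranded mRNA kit was used. Groups came from sample titles. Counts were tested with edgeR 4.0.16 (R 4.3.3): filterByExpr (minimum count 10, total 15), TMM, robust quasi-likelihood fit of group, Benjamini-Hochberg adjustment over 13915 genes, threshold 0.05. SE is the absolute log2 fold change over the square root of F. Ratios to Alb, log2((count + 0.5) / (Alb count + 0.5)), were compared by exact two-sided permutation (smallest possible p = 5.83e-04). Exon lengths are GENCODE M21 unions and coordinates RefSeq GRCm38.p6, the same build. Replicates all differed by more than counting error (chi-square over degrees of freedom at least 13.4 for each pair). Both tests were checked on simulated data that had the same spread in both groups. The log2 levels of the members spread more in CONV-R than in GF, which that check does not cover. The common biological coefficient of variation was 0.264. Named are all members, Alb, the 3 nearest genes per member (mean of at least 1 CPM), up to 4 genes per pathway list by smallest p, and the first 4 hepatocyte and Kupffer cell markers, except where the text says otherwise. Some genes that this rule picks are not reported here. Members, lists and tests were chosen with earlier results of these data known. Alternatives were DESeq2 1.42.0, limma 3.58.1 voom, other scalings, filters, denominators, covariates and library subsets. The Kupffer cell covariate was added after seeing the data.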

Additional observations from a re-analysis of the deposited data

Results flagged for a closer look

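Among 42 sets of values searched for a single far library (10 genes and Alb, on both scales where they apply, in each group), 1 was found. Apoa4 stood at 0.755 counts per 100 Alb counts in CONV-R library 5, far above the other 6 CONV-R libraries at 0.297 to 0.439, by a gap of 0.690 of the group's whole range against a critical value of 0.568. Chance marks about 1 in 20 such sets.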

How the results depend on the processing

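No paired analysis was possible because no replicate number in the labels occurs in both groups. Of the 10 members 8 were lower in GF, as were 8 to 9 on leaving out each library. The count was 6 against CONV-R 2, 3 and 4 alone, 0 with the hepatocyte sum as a covariate, 4 with the Kupffer cell sum and 0 with both. The hepatocyte sum did not overlap between the groups, so that fits with it cannot clearly separate group from hepatocyte level. Pathway genes changed numbered 32, 22 to 35 without each library, 4, 11 and 9 with these covariates in turn, 19 against CONV-R number 10 alone and 21 against CONV-R 2, 3 and 4 alone. Members changed relative to Alb numbered 4, and 3 to 6 without each library. Direction turned with the hepatocyte covariate for Apoa4 (0.62), Apoa5 (0.0048), Apoc1 (0.16), Apoc3 (0.029) and Apoe (0.088), with both covariates for Apoa4 (0.59), Apoc1 (0.054), Apoc3 (0.031) and Apoe (0.022), and against CONV-R 2, 3 and 4 alone for Apoe (0.030). Relative to Alb it turned against CONV-R 2, 3 and 4 alone for Apoa1 (0.10), Apoa2 (0.071), Apoa5 (0.22), Apoc3 (0.17) and Apom (0.050), and against number 10 alone for Apoc3 (0.0058). CONV-R 2, 3 and 4 had the lowest CONV-R ratios of these genes to Alb, so that the turn against them is not independent of that choice. None of these turned values passed the threshold, and the cause was not tested. With library totals in place of TMM the split over all genes was 971 higher against 2773 lower (25.9% higher, against 47.5%), with a median log2 fold change of -0.11, and the same 8 members were lower. Over all genes 255 were lower and 282 higher with the hepatocyte covariate, 668 and 787 with the Kupffer cell covariate, 326 and 419 with both, 1000 and 978 against number 10 alone, and 1013 were higher without GF library 9. Lower relative to Alb were 73 genes, 135 by edgeR, 37 against number 10, 206 against number 9 and 24 against CONV-R 2, 3 and 4. With summed hepatocyte markers or Ttr in place of Alb, Apoc1 (0.51 and 0.56) was also called higher and Apom (-0.40 and -0.35) lower. Depth limits Apoa4 and Apom most, at 23 and 34 counts in the library with the fewest.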
